A study of Mus musculus with 4 samples.

Results

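The solute carrier (SLC) genes described here are the rows of the count files whose symbol starts with Slc and a number and whose level, averaged over the 4 libraries, was at least 1 CPM, the count as a share of the library total on the usual CPM scale. Of 369 such symbols in 23420 rows, 173 passed, from 41 of 49 numbered families. Another 130 had counts under that level and 66 had none. The members were chosen by this mean level over all libraries, not by the difference between the groups. All 173 were also tested. Of them, 169 name a transporter or a transporter subunit and 4 do not, although the letters match. Those 4 are Slc9a3r1, a scaffold protein gene, Slc4a1ap, an adaptor protein gene, Slc7a6os, a gene on the strand opposite Slc7a6, and the pseudogene Slc2a4rg-ps.

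The libraries came from 1 mouse large pre-B cell line deficient in both Irf4 and Irf8 (Irf4/8-/-), a deficiency that treated and control cells share. The cells grew with interleukin 7 at 10 ng/ml on OP9 stroma, a feeder line. They received a retrovirus that carries GFP and a hairpin RNA directed at Myb (shMyb) or at luciferase (shLuc, the control), were kept for 72 hours and were sorted for GFP. Each group had 2 libraries, from duplicate sets of 12 wells of the same line, so the p-values rest on the spread of duplicate cultures, which may be technical, and not on separate lines or animals.

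Solute carriers are membrane proteins that move nutrients, ions and metabolites down a gradient, together with another solute or in exchange for one. Those of the cell surface bring in glucose, amino acids, nucleosides and folate, which dividing lymphocytes use to build new cells. Others sit in mitochondria, lysosomes or the Golgi apparatus and move metabolites between compartments. In developing B cells the large pre-B stage is the dividing one, and amino acid and glucose transporters are known as growth-linked genes of lymphocytes.

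Before any direction is read, the target of the hairpin was examined. Myb had 616 and 600.2 CPM in the 2 control libraries and 617 and 639 CPM in those labelled shMyb (log2 fold change 0.05, 95% interval -0.03 to 0.12, adjusted p = 0.283). The transcript was therefore not lower where its hairpin was used, so higher and lower below refer to the label a library carries and not to a measured loss of Myb. With libraries scaled by their totals alone it was called higher (0.11). The 173 genes together took 1.1% to 1.13% of the 36573743 to 44682954 counts of a library. All 10 markers of large pre-B cells were present, and 5 rose and 4 fell. Cd79a went from 889 and 908 CPM to 1057 and 1038 CPM (0.22), while Dntt, Igll1 and Vpreb1, genes of early B cell stages, fell by 0.89, 0.37 and 0.29. The part of these markers in the results below was not tested. Of 13 stromal markers 4 fell and 1 rose (summed level 72 to 88.9 CPM in shLuc and 57.9 to 65.5 CPM in shMyb). Of 11 myeloid markers in the files 8 were tested and 5 of them rose, from a summed 3.83 to 5.01 CPM to 8.85 to 10.5 CPM, while Elane had no count and Mpo at most 1 count in a library. Myeloid cells also express transporters described below, such as Slc15a3 and Slc16a3, and the part of such markers in these results was not tested. In RNA from bulk cells, fewer cells of a type and less RNA per cell cannot be told apart.

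Across all 173 genes, 59 rose and 49 fell in the libraries labelled shMyb, and 65 did not pass the test. That is 62.4% called, beside 62.2% of the 12610 genes tested and 65.3% of the 10939 tested genes that also averaged 1 CPM. The share of called genes thus did not set the transporters apart. Higher calls made up 34.1% of them (30.6% of all tested genes, 30% of those averaging 1 CPM) and lower calls 28.3% (31.7% and 35.3%). These shares are the background of every class count below. The groups did not overlap in 145 of the 173, 75 higher and 70 lower. Over all tested genes 82.1% showed no overlap, 41% higher and 41.2% lower, and of those averaging 1 CPM 83.9%, 39.2% higher and 44.7% lower. The median log2 fold change was 0.01, against 0.0048 over all tested genes, and the median size of a difference was 0.23 on the log2 scale (0.24 over all). At least 2-fold higher were 9 genes (8.1% of all tested genes and 4.72% of those averaging 1 CPM were) and none was as far lower (2.36% and 1.68%). Of those 9, Slc9a2, Slc12a3 and Slc25a27 averaged under 1 CPM in shLuc and passed the threshold only through the libraries in which they were high. With libraries scaled by their totals alone, 75 were called higher and 33 lower, so that 69.4% of the calls were higher in place of 54.6%. Over all genes that share went from 49.1% to 60.1% and the median log2 fold change to 0.07.

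**Figure D1:**
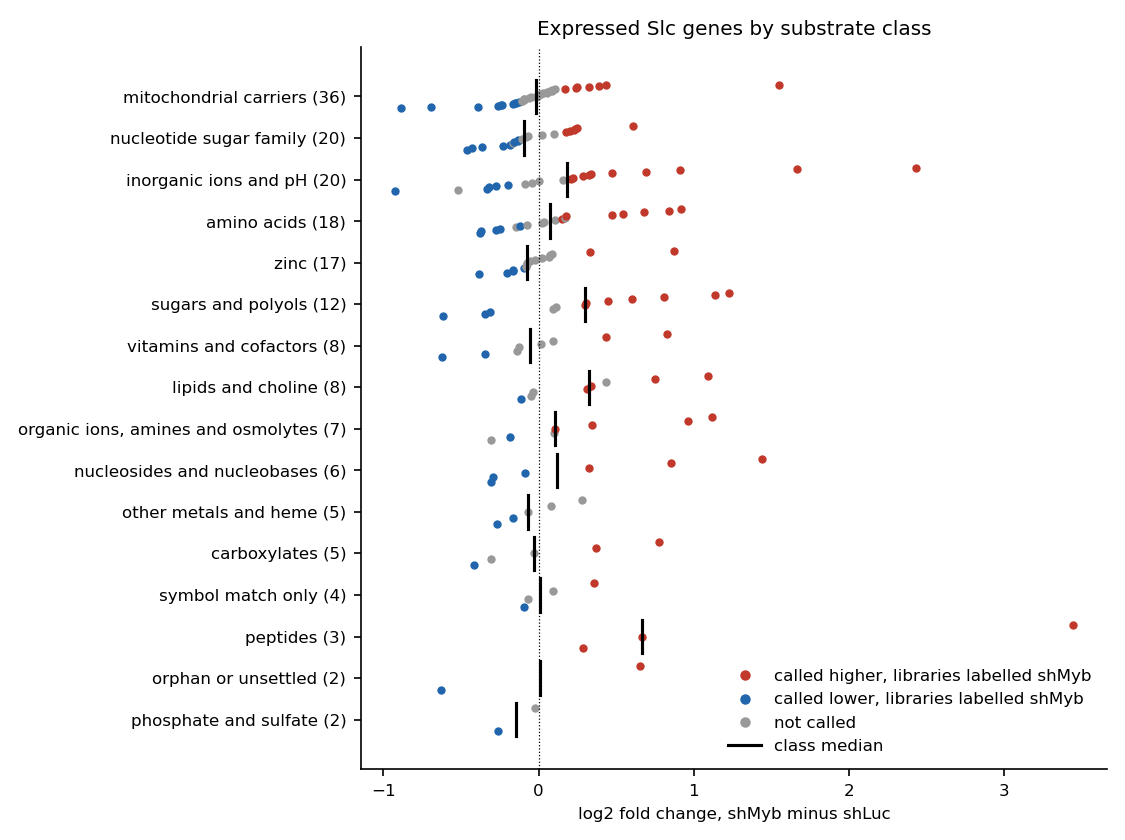
Log2 fold change (shMyb minus shLuc) of the 173 expressed Slc genes, 1 point per gene, in rows by substrate class with the number of genes in parentheses; black bars are class medians and colours give the call at an adjusted p below 0.05. Slc15a2 stands alone at 3.45 among the peptide transporters, and the medians of the zinc and mitochondrial rows are -0.08 and -0.01.

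Direction went with abundance, among transporters as among other genes. Of the 24 members at 1 to 5 CPM 11 rose and 1 fell, and of the 27 above 100 CPM 5 rose and 15 fell. Among those 11, Slc9a2, Slc12a3 and Slc25a27 averaged under 1 CPM in shLuc. They are in the range only through the libraries labelled shMyb, so their direction was built into the choice. All tested genes showed the same tilt, with 40.7% higher and 15.6% lower in the first range and 25.6% higher and 47.5% lower in the second. Members from 5 to 20 CPM had 22 higher and 5 lower of 46 (47.8% and 10.9%), beside 33.8% and 26.4% of all tested genes in that range. When this trend was removed with offsets fitted on abundance, 63 members were higher and 46 lower.

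**Figure D2:**
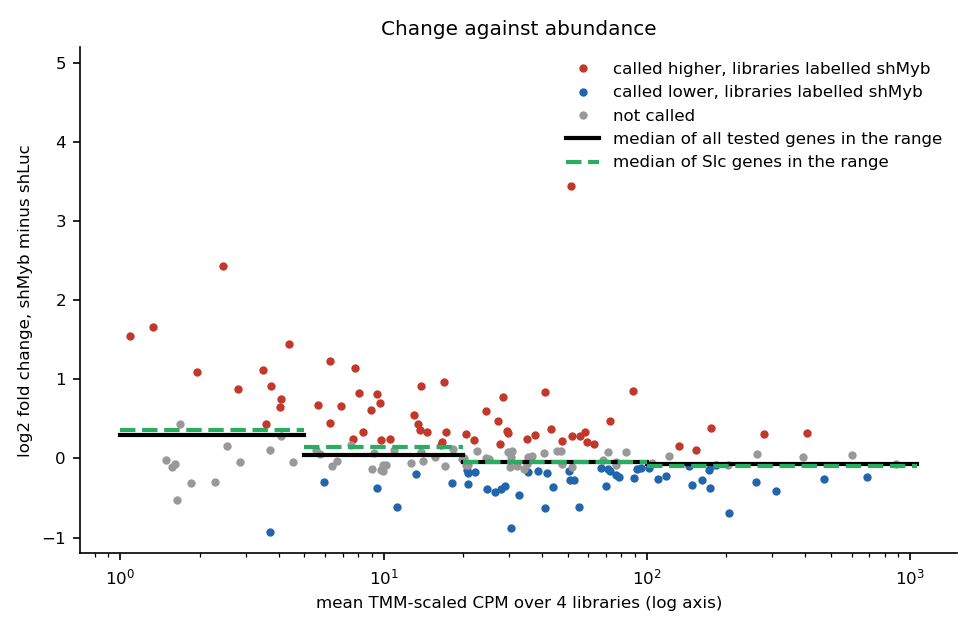
Log2 fold change (shMyb minus shLuc) against mean CPM over 4 libraries on a log axis, 1 point per expressed Slc gene; horizontal lines are medians in 4 abundance ranges for all tested genes (black) and for Slc genes (green, dashed). The medians fall from 0.30 (all genes) and 0.36 (Slc genes) at 1 to 5 CPM to -0.07 and -0.09 above 100 CPM. The Slc genes at 1 to 5 CPM include Slc9a2, Slc12a3 and Slc25a27, which passed the threshold only through the libraries labelled shMyb.

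The largest rise and the largest falls among members that reached 5 CPM in a group were in Slc15a2, Slc25a33 and Slc25a1. Their promoters are shown to give the sequence context of those 3 genes, as the 250 bases before the RefSeq transcription start on GRCm38.p6, 5′ to 3′ on the gene's strand. Capitals mark the core that Myb proteins bind (AACNG, on either strand) and the E-box bound by Myc and Max (CACGTG). The windows lie at chr16:36784963-36785212 (minus strand, Slc15a2), chr4:149774268-149774517 (minus strand, Slc25a33) and chr16:17928220-17928469 (minus strand, Slc25a1).
Slc15a2: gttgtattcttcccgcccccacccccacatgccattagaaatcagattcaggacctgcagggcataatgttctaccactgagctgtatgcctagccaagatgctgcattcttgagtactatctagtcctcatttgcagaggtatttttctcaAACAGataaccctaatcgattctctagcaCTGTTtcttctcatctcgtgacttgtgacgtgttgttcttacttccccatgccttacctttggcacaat
Slc25a33: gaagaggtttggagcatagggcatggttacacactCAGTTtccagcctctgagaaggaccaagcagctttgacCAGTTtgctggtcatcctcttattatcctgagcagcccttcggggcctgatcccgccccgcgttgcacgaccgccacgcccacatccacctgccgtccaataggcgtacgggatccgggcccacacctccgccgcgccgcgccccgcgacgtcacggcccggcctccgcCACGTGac
Slc25a1: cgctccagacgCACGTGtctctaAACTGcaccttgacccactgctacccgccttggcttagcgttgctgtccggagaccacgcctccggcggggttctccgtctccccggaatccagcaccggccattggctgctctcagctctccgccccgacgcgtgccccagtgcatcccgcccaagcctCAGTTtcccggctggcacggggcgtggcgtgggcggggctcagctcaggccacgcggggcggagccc
Each of the 3 windows holds 2 Myb cores, and those of Slc25a33 and Slc25a1 also hold 1 E-box, which starts 8 and 239 bases before the start. A match is a description only. Over windows of 300 bases that include 50 bases past the start, RefSeq gave a promoter for 129 of the 173 members. The Myb core stood in 72.9% of those and in 80.4% of all 27025 promoters of the table, with 75.6% of the promoters of higher members and 74.4% of those of lower ones. The E-box was in 13.2% of member promoters (7.24% of all), likewise in both directions, at 14.6% and 15.4%. The element bound by ATF4 (TGATGNAA, either strand) was in 4 member promoters, 3.1% (4.06% of all). The 27025 promoters were taken without regard to expression, whereas the members were chosen by it, so these shares compare unlike sets.

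All 3 peptide transporters rose, where 30.6% of all tested genes did. Slc15a2 (chromosome 16, 36750177 to 36784962, minus strand), the proton-coupled carrier of di- and tripeptides also called PEPT2, had 9.26 and 8.15 CPM under shLuc, against 89.3 and 100 CPM under shMyb. The 2 groups were far apart, with a 10.9-fold difference (log2 fold change 3.45, 95% interval 3.3 to 3.6, adjusted p = 1.9e-15). No other member changed as much. The lysosomal carriers of peptides and histidine, Slc15a3 and Slc15a4, rose by 0.67 and 0.28, from 5.21 to 5.43 CPM up to 7.86 to 9.01 CPM and from 46.7 to 47.1 CPM up to 56.4 to 57.7 CPM. An exon of Slc15a3 overlaps Tmem132a on the opposite strand, and the strand setting of the counting is not given in the sources used here.

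Amino acid transporters moved both ways, 7 higher and 5 lower of 18, with a median of 0.07. The balance depended on the setting, at 10 higher and 4 lower by library totals and 5 and 6 after the GC and length correction (median 0.00). Fallers included some of the surface carriers that supply growing lymphocytes. Slc7a5 (chromosome 8, 121881150 to 121907694), the large neutral amino acid carrier LAT1, had 195 and 198 CPM under shLuc, against 156 and 147 CPM under shMyb (log2 fold change -0.37, SE 0.04, adjusted p = 7.3e-09). Its heavy chain Slc3a2, the CD98 antigen, fell with it, from 96.3 and 98.6 CPM to 79.4 and 84.6 CPM (-0.25, SE 0.04). In both genes all control libraries were above all others, as in 41.2% of all tested genes. Slc7a1, the carrier of arginine and lysine that is also the receptor of ecotropic murine leukaemia virus, fell from 178 ± 1.24 to 147 ± 3.17 CPM (SD, n = 2 each, log2 fold change -0.27). The vesicular glutamate carrier gene Slc17a8 fell by 0.38. Slc7a6, which carries cationic and neutral amino acids, fell by 0.12, a call that was lost without shMyb replicate 2 (adjusted p = 0.179).

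The most read amino acid carriers did not pass. Slc1a5, the glutamine carrier ASCT2, had 924 and 893 CPM under shLuc, against 838 and 892 CPM under shMyb (95% interval of the log2 fold change -0.15 to 0.01). Slc38a2, a carrier of small neutral amino acids, was at 596 ± 2.55 and 611 ± 5.26 CPM (-0.04 to 0.11), and its relative Slc38a1 at 385 to 396 CPM in all 4 libraries. By library totals alone Slc38a2 was called higher (0.10). The cystine carrier gene Slc7a11 was near 0, with 1, 2, 7 and 1 counts, and was no member. Risers included 2 carriers of the lysosome. Slc38a9 (chromosome 13, 112660751 to 112738749), the lysosomal arginine sensor upstream of mTORC1, had 31.3 and 27.7 CPM under shLuc, against 50 and 55.6 CPM under shMyb (0.84, SE 0.06, adjusted p = 2.0e-08). Slc36a1, a proton-coupled carrier of lysosomes, rose from 10.3 to 11 CPM up to 15.2 to 15.7 CPM (0.54). Neither gene had overlapping groups, nor had 82.1% of all tested genes. Slc43a2, the branched-chain amino acid carrier LAT4, rose by 0.47. Its relative Slc43a1 (LAT3) rose by 0.18, with an adjusted p of 0.0531 without shLuc replicate 1. Slc6a19 (0.92, from 2.39 to 2.80 CPM), Slc38a6 (0.68) and Slc38a10 (0.15) rose as well.

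**Figure D3:**
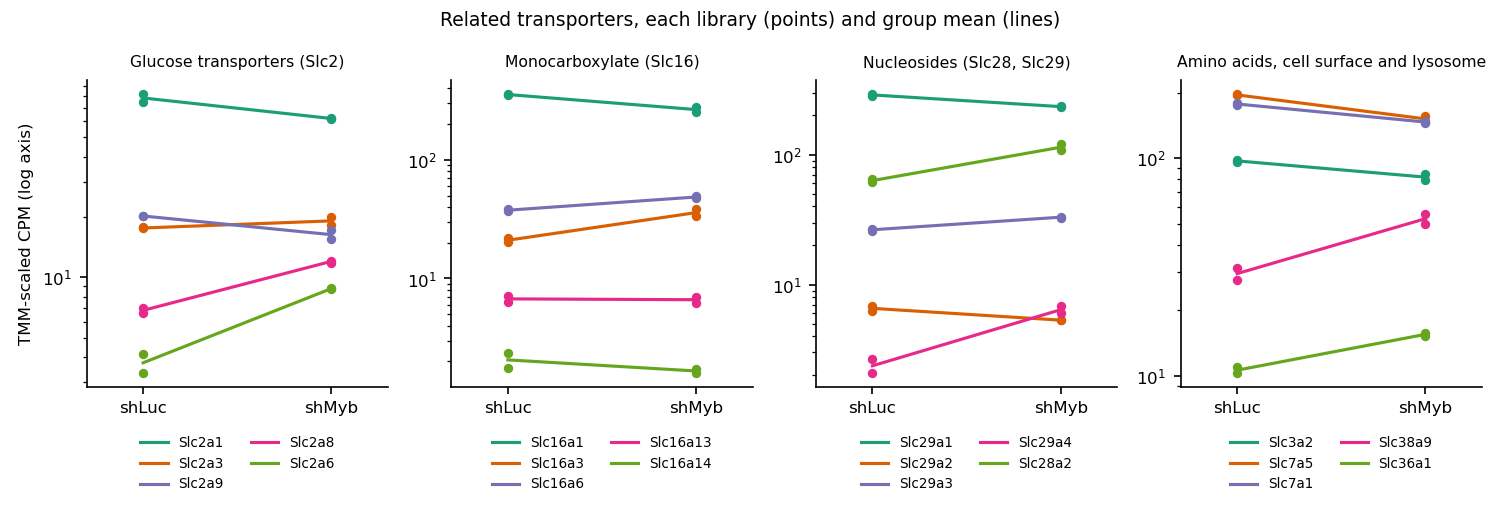
CPM on a log axis of 5 related transporters in each of 4 groups (Slc2 family, Slc16, Slc28 with Slc29, and amino acid carriers), in shLuc and shMyb; points are single libraries and lines join the group means. Slc2a1, Slc16a1, Slc29a1 and Slc7a5 fall and Slc2a6, Slc16a3, Slc28a2 and Slc38a9 rise. The genes were picked for display, and the amino acid panel leaves out Slc1a5, Slc38a2 and Slc38a1, which have more CPM and were not called.

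Among transporters of sugars, polyols and sugar phosphates 7 rose and 3 fell of 12 (median 0.30). That is 58.3% higher and 25% lower, beside 30.6% and 31.7% of all tested genes. Slc2a1 (chromosome 4, 119108711 to 119137983), the widely expressed glucose carrier GLUT1, had 74.8 and 82.1 CPM under shLuc, against 61.4 and 62.3 CPM under shMyb (-0.34, SE 0.04, adjusted p = 4.5e-07). Slc2a3, the high-affinity carrier GLUT3, had 17.6 and 17.7 CPM, against 19.9 and 18.3 CPM, and did not pass (0.11, 95% interval -0.02 to 0.25). The intracellular relatives rose from low levels. Slc2a6 went from 3.33 and 4.15 CPM to 8.73 and 8.84 CPM (1.23, SE 0.12), and Slc2a8 from 7.01 and 6.66 CPM to 11.8 and 12.1 CPM (0.81, SE 0.09). Slc2a9, a urate carrier of the same family, fell by 0.31. Slc37a3 rose 2.2-fold, from 4.89 ± 0.587 to 10.7 ± 0.145 CPM (SD, n = 2), and its relatives Slc37a2 and Slc37a4, the glucose 6-phosphate carrier of the endoplasmic reticulum, by 0.60 and 0.30. Slc50a1, a glucose carrier of the SWEET family, rose by 0.30. The myo-inositol carrier gene Slc5a3 fell by 0.61, from 11.9 to 15.3 CPM down to 8.55 to 9.16 CPM. It shares 159 of its 10913 exonic bases with Mrps6 on the same strand, and the part of this overlap in its level was not tested.

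Monocarboxylate transporters split between their 2 best known members, which carry lactate and pyruvate. Slc16a1 (chromosome 3, 104638668 to 104658462), or MCT1, had 349.9 and 359 CPM under shLuc, against 276 and 255 CPM under shMyb (-0.42, SE 0.04, adjusted p = 1.8e-09). Slc16a3 (chromosome 11, 120948480 to 120960868), or MCT4, the form used for lactate export, went the other way, from 21.8 and 20.3 CPM to 38.4 and 33.5 CPM (0.78, SE 0.06, adjusted p = 4.8e-09). The groups were separate in both genes, as in 82.1% of all tested genes. Slc16a6 rose by 0.37, although 1052 of its exonic bases overlap Amz2 on the opposite strand, and Slc16a13 and Slc16a14 did not pass (-0.03 and -0.31). Bsg, the chaperone that brings MCT1 and MCT4 to the surface, fell by 0.16 (191 ± 0.844 to 170.4 ± 1.01 CPM).

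Mitochondrial carriers of the Slc25 family were the largest class and one of small differences, with 7 higher, 10 lower and 19 of 36 not called, and a median size of 0.11. Its balance turned with scaling, at 10 higher and 7 lower by library totals and 9 of each by upper-quartile scaling. The fallers included the 2 with the most CPM, Slc25a5 and Slc25a3. Slc25a1 (chromosome 16, 17925223 to 17928219), which exports citrate for fatty acid and sterol synthesis, had 249 and 260 CPM under shLuc, against 161 and 154 CPM under shMyb (-0.69, SE 0.04, adjusted p = 5.0e-14). Slc25a33 (chromosome 4, 149744036 to 149774277), a carrier of pyrimidine nucleotides, had 38.8 and 40.1 CPM, against 22.3 and 20.5 CPM (-0.88, SE 0.06, adjusted p = 7.6e-13), and an exon overlaps Gm13068 on the opposite strand. These were the only members of the class that fell by more than 0.5. The second pyrimidine nucleotide carrier gene, Slc25a36, rose by 0.33. Slc25a32, which brings in folate, fell by 0.39, and Slc25a39, a glutathione carrier, by 0.24.

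The carriers that serve ATP synthesis fell a little. Slc25a5, the ADP/ATP exchanger ANT2, went from 729 and 754 CPM to 643 and 617 CPM (-0.23), Slc25a4 (ANT1) from 181 ± 5.55 to 164 ± 5.46 CPM (-0.15) and the phosphate carrier gene Slc25a3 from 514 ± 10.7 to 429.6 ± 13.6 CPM (-0.26). Per exonic kilobase, Slc25a5 was the most read member, at 450.4 CPM per kb in shLuc. Reads of the related Slc25a4 and Slc25a5 may be split between them. Both mitoferrin genes, whose products import iron, rose, Slc25a37 by 0.39 (from 149 to 156 CPM up to 194 to 205 CPM) and Slc25a28 by 0.24. Slc25a53 rose by 0.44 and Slc25a27 by 1.55, the latter on 28 and 18 counts in shLuc and 55 and 69 in shMyb. The NAD carrier gene Slc25a51, at 256 to 267 CPM in all libraries, did not pass.

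All 6 transporters of nucleosides and nucleobases were called, 3 each way, where 62.2% of all tested genes were called. Slc29a1, the equilibrative carrier ENT1, fell from 283 and 293 CPM to 237 and 232 CPM (-0.30, SE 0.04), and Slc29a2 by 0.30 from 6.28 to 6.84 CPM, the latter not called without shLuc replicate 2 (adjusted p = 0.16), shMyb replicate 1 (0.0689) or shMyb replicate 2 (0.057). Slc28a2 (chromosome 2, 122426477 to 122461137), the sodium-coupled carrier of purine nucleosides, rose from 64.6 and 61.6 CPM to 108 and 119.9 CPM (0.85, SE 0.05, adjusted p = 4.6e-11). The lysosomal carrier gene Slc29a3 rose by 0.32 and Slc29a4, a monoamine carrier of the same family, by 1.44 from 2.37 ± 0.399 CPM (SD, n = 2). The fall of the purine nucleobase carrier gene Slc43a3 was small (-0.08, adjusted p = 0.048), and it was not called under 13 of the 16 alternatives that gave it a value.

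Among 8 vitamin and cofactor transporters 2 rose and 2 fell. Slc19a1 (chromosome 10, 77032241 to 77061002), the reduced folate carrier, went from 65.0 and 68.5 CPM to 45.4 and 41.5 CPM (-0.62, SE 0.05, adjusted p = 5.2e-11). Slc33a1, which takes acetyl-CoA into the endoplasmic reticulum, fell by 0.35, with 1136 exonic bases shared with Gm26850 on the opposite strand. The vitamin C carrier gene Slc23a1 rose from 6.16 and 5.39 CPM to 9.42 and 11.1 CPM (0.83, SE 0.10), while its more read relative Slc23a2 did not pass (0.09, adjusted p = 0.0847). The riboflavin carrier gene Slc52a3 rose by 0.44, a call lost without shLuc replicate 1 (adjusted p = 0.154) or shMyb replicate 2 (0.0985), and Slc52a2 did not pass (0.01).

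**Figure D4:**
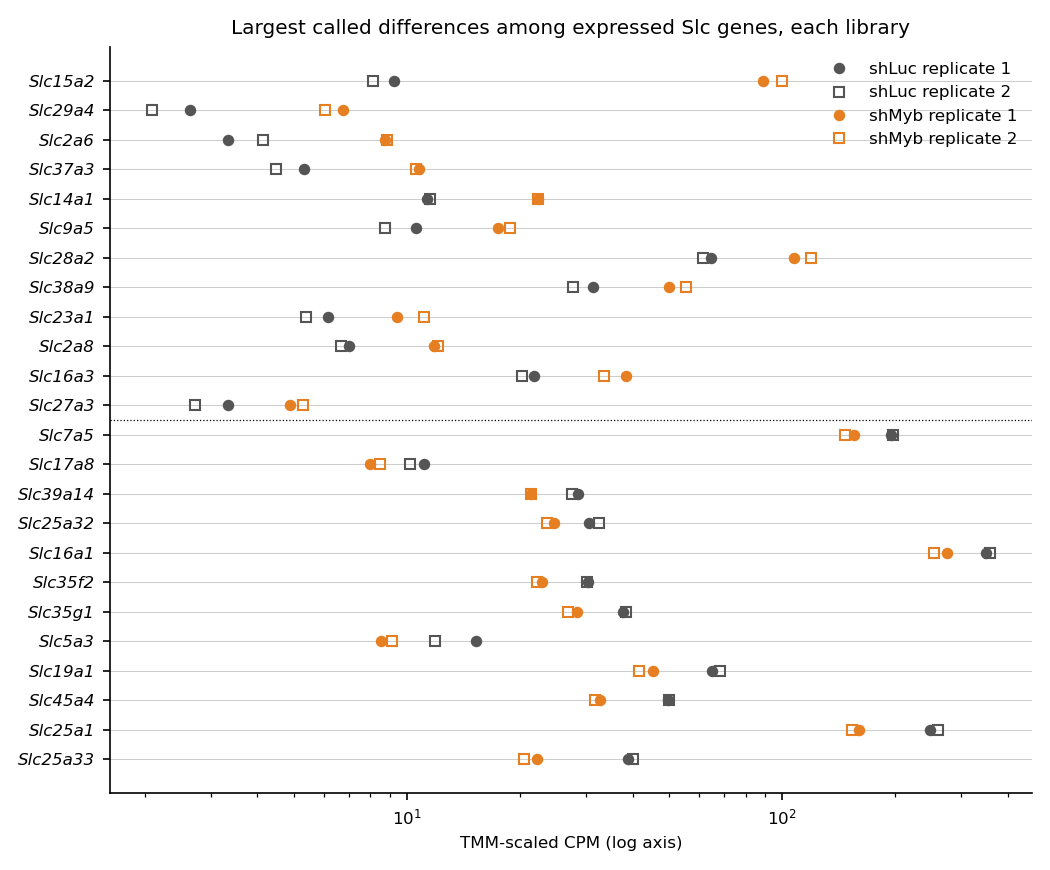
CPM on a log axis in each of the 4 libraries for the 12 members called higher (above the dotted line) and the 12 called lower (below it) with the largest log2 fold change among those that reached 5 CPM in a group. The groups are separate in all 24 genes, by most in Slc15a2. The 24 were picked for large called differences, and 82.1% of all tested genes had separate groups.

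Of 20 transporters of inorganic ions and protons 10 rose and 5 fell (median 0.18). That is 50% higher and 25% lower, beside 30.6% and 31.7% of all tested genes. The 10 include Slc9a2 and Slc12a3, which averaged under 1 CPM in shLuc. Both became members only through the libraries labelled shMyb, so their direction was built into the choice. After the GC and length correction 8 were higher and 6 lower, with a median of 0.03. Among sodium-proton exchangers, the organelle forms Slc9a7 and Slc9a8 rose by 0.34 and 0.29, and Slc9a5 from 10.6 and 8.75 CPM to 17.5 and 18.8 CPM (0.91, SE 0.08). Slc9a2 rose by 2.43 from 0.712 to 0.826 CPM, a low level. Of the cation-chloride carriers, Slc12a9 rose by 0.47 and Slc12a3 by 1.66, the latter on 37 and 16 counts in shLuc and 83 and 72 in shMyb. Slc12a2 (NKCC1) fell by 0.27, and Slc12a7 (KCC4) had 194 to 218 CPM and did not pass (-0.09). Slc12a4 (KCC1) fell by 0.20, a call lost without shLuc replicate 2 (adjusted p = 0.106) or shMyb replicate 2 (0.0799). The bicarbonate importer gene Slc4a7 fell from 168 and 163 CPM to 130.4 and 131 CPM (-0.34, SE 0.04), whereas the anion exchanger gene Slc4a2 rose by 0.21. Slc24a6, which encodes the mitochondrial sodium-calcium exchanger, rose by 0.70, and the iodide carrier gene Slc5a5 fell by 0.93 from 4.29 to 5.43 CPM. Of 11 tested genes for ion pumps, whose gradients drive many carriers, and for carrier chaperones, 3 rose and 6 fell (median -0.11). That is 81.8% called and 54.5% lower, beside 62.2% and 31.7% of all tested genes. Above 100 CPM the shares were 73% and 47.5%, but the levels of the 11 ran from 1.68 (Emb) to 915 CPM (Atp2a3). The sodium pump subunit gene Atp1b3 fell from 586 and 607 CPM to 399 and 369 CPM (-0.63), and the calcium pump genes Atp2a3 and Atp2b1 rose by 0.45 and 0.22 while Atp2a2 fell by 0.21.

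Zinc transporters showed small differences, with 2 higher, 5 lower and 10 of 17 not called, a median of -0.08 and a median size of 0.08. Of the importers, Slc39a14 fell from 28.6 and 27.5 CPM to 21.4 and 21.5 CPM (-0.39, SE 0.06), Slc39a6 by 0.20 and Slc39a10 by 0.16. Slc39a4 rose by 0.87 on 1.47 to 2.50 CPM in shLuc and Slc39a13 by 0.33. Slc30a1, the surface zinc exporter, was at 10.2 ± 0.254 and 9.67 ± 0.0678 CPM (95% interval -0.26 to 0.09). Of the carriers into organelles, Slc30a4 did not pass (0.03) and Slc30a5 fell by 0.09, with an adjusted p of 0.112 without shLuc replicate 2 and 0.132 without shMyb replicate 2. The balance of this class rested on scaling, with 5 higher and 3 lower by library totals alone, and without shMyb replicate 2 it had 3 lower. Among 5 carriers of other metals and heme none rose, and the copper importer gene Slc31a1 (-0.27) and the iron carrier gene Slc11a2 (-0.17) fell, but by library totals 2 were higher and 1 lower. The heme carrier gene Slc48a1 did not pass (-0.07). The Slc11a2 call was lost without shLuc replicate 1 or shMyb replicate 2.

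The Slc35 family, whose best known members carry nucleotide sugars for glycosylation in the Golgi apparatus, had 6 higher and 8 lower of 20 and no difference of 2-fold. Without shLuc replicate 1 only 2 were higher. Slc35g1 (-0.46) and Slc35f2 (-0.43), which are not established nucleotide sugar carriers, and Slc35b2, the carrier of the sulfate donor PAPS (-0.36), fell most, and the GDP-fucose carrier gene Slc35c1 fell by 0.19. Slc35a4, at 107 to 129.7 CPM, fell by 0.23. Slc35e1 fell by 0.13 (adjusted p = 0.131 without shMyb replicate 2). Slc35a1, the CMP-sialic acid carrier, rose from 6.66 and 7.44 CPM to 10.5 and 11 CPM (0.61, SE 0.09). Of 8 lipid and choline carriers 4 rose, 50% beside 30.6% of all tested genes. Slc44a2 went from 253 and 245 CPM to 309 and 309 CPM (0.31). The fatty acid carrier genes Slc27a3 and Slc27a4 rose by 0.75 and 0.34. Slc10a7 was at 73.6 to 79.3 CPM and did not pass. Slc27a1 fell by 0.11, with an adjusted p of 0.0624 when shLuc replicate 1 was left out and 0.182 when shMyb replicate 1 was.

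In the class of organic ions, amines and osmolytes 4 of 7 rose and 1 fell. That is 57.1% higher and 14.3% lower, beside 30.6% and 31.7% of all tested genes. The urea carrier gene Slc14a1 nearly doubled, from 11.3 and 11.5 CPM to 22.4 and 22.4 CPM (0.97, SE 0.07, adjusted p = 5.7e-12). Slc17a9, the vesicular nucleotide carrier, rose by 0.34, the creatine carrier gene Slc6a8 by 1.12 from 1.49 to 2.93 CPM, and the taurine carrier gene Slc6a6 by 0.11. For Slc6a6 the adjusted p was 0.0598 to 0.128 when shLuc replicate 1, shLuc replicate 2 or shMyb replicate 2 was left out. Slc22a5, the carnitine carrier, fell by 0.18 (adjusted p = 0.143 without shLuc replicate 1). Of the phosphate importers, Slc20a1 fell from 121 and 120.1 CPM to 100.2 and 100.3 CPM (-0.26) and Slc20a2, the receptor of amphotropic murine leukaemia virus, did not pass (-0.02). Among the 4 symbols that name no transporter, the pseudogene Slc2a4rg-ps rose by 0.36, and Slc7a6os (0.09) and Slc4a1ap (-0.07) did not pass. Slc9a3r1 fell by 0.09, with an adjusted p of 0.0545 to 0.272 when shLuc replicate 2, shMyb replicate 1 or shMyb replicate 2 was left out. Slc45a4 fell from 49.6 and 50.1 CPM to 32.7 and 31.7 CPM (-0.63, SE 0.05), and Slc46a3 rose by 0.65 from 2.98 to 3.28 CPM.

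Carriers of the same superfamily that bear other symbols were also counted. Of 35 such genes listed, 25 were tested, 5 rose and 12 fell (68% called and 48% lower, median -0.12). Over all tested genes 62.2% were called and 31.7% lower, and above 100 CPM 73% and 47.5%. Most of the 25 lie under 100 CPM, and of all tested genes at 20 to 100 CPM 66.2% were called and 38.8% lower. Ucp2, a mitochondrial carrier of the Slc25 type, had 3267 and 3348 CPM under shLuc, against 2506 and 2314 CPM under shMyb (-0.46), and both subunits of the mitochondrial pyruvate carrier, Mpc1 and Mpc2, fell by 0.46 and 0.36. The organic anion carrier gene Slco4a1 fell by 0.50. The sphingosine 1-phosphate exporter gene Spns2 rose by 1.05 and Spns3 by 1.87, both from under 2 CPM.

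At the threshold of 1 CPM that chose the members, the values just inside were 1.1 (Slc25a27), 1.35 (Slc12a3) and 1.49 CPM (Slc39a8). Just outside were Slc25a24 (0.873), Slc16a5 (0.853) and Slc47a2 (0.801). Slc25a27, Slc12a3 and Slc9a2 (0.826 and 0.712 CPM in shLuc) were under 1 CPM in both shLuc libraries and passed through the libraries labelled shMyb.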

How the data were processed

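RNA from 4 libraries of 1 cell line, 2 per group by their titles, was analysed from raw read counts per gene symbol, which the authors deposited as 1 file per library. FastQC, STAR, HTSeq, DESeq2 and the mm10 build appear in the submitters' processing notes without role or version. Which annotation and strand setting they used is not given in the labels. Gene symbols were looked up in GENCODE M21 (GRCm38, the same build as mm10), 21751 by name, 1277 through an older symbol and 392 not at all, and all 173 members matched. Exons of 43 members overlap a gene on the opposite strand.

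The test was edgeR's quasi-likelihood test (edgeR 4.0.16, R 4.3.3) after filterByExpr (minimum count 10, 12610 genes kept) and TMM scaling, with robust=TRUE and no covariate. Benjamini-Hochberg adjustment was over all tested genes. An adjusted p below 0.05 made a call, and "rose" and "fell" are used of calls only. CPM values use TMM-scaled library sizes, except for choosing members. Levels per kilobase use the joined exons of a gene. A SE is the log2 fold change divided by the root of its F statistic. Total counts were 40701550 and 44682954 (shLuc) and 38318335 and 36573743 (shMyb), so 3 counts were worth 0.0689 to 0.0799 CPM, for counting error only. The fit was tested on simulated counts, and the recovery of changed genes asked of that test was lowered after its first run had just missed it.

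Members, substrate classes (by family number, from textbook knowledge) and lists were chosen with earlier results of these data known. Slc4a1ap was moved to the non-transporters after the symbols were seen. Genes named are the 12 largest calls each way whose higher group averaged 5 CPM or more, 2 by p and 2 by level per class of 5 or more, all of smaller classes, 3 on each side of the 1 CPM threshold and 20 fixed genes, with up to 4 called genes by p from each other list. Genes outside that rule were added after their values were seen. Alternatives were RLE, upper-quartile and total scaling, offsets by abundance, a GC and length correction, no filter, a 1 CPM filter, robust=FALSE, DESeq2 1.42.0, a block on the replicate number, each library left out in turn, a threshold of 0.01, a 5 CPM member threshold and transporter symbols alone. Promoter sequences are from RefSeq (GRCm38.p6). Results for some withheld items are not reported here.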

Additional observations from a re-analysis of the deposited data

How the results depend on the processing

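Over 16 fits, 78 of the 108 called members were called in every one, 45 higher and 33 lower, and no member called both in the fit reported and in an alternative changed direction. The number higher ran from 50 (DESeq2) to 75 (library totals) and the number lower from 33 (library totals) to 56 (crossed replicate block, chosen after seeing the data). An adjusted p below 0.01 gave 49 and 39. Without 1 library at a time 51 to 59 were higher and 42 to 47 lower, and 24 members lost their call in at least 1 of these fits. Same-numbered libraries correlated at -0.195 in their deviations over tested genes, so no pairing by number was seen. With 2 libraries per group this value can reflect any difference between single libraries and cannot settle whether the cultures were paired. The replicate block gave 57 higher and 45 lower members.

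Among classes of 10 or more members, counts moved by over 1.5 times in the Slc35 family and the zinc transporters, and counts of smaller classes moved as well. The Slc35 family had 5 lower with library totals, 2 higher with DESeq2 and 3 higher at 0.01, and without 1 library 2 to 6 higher. The zinc class had 5 higher and 3 lower with library totals, 1 higher with the GC and length correction, 1 higher and 3 lower with DESeq2 and 1 higher at 0.01. Without shMyb replicate 2 it had 3 lower, against 3 to 5 over the 4 such fits. The causes were not tested. Myb was called higher with library totals (0.11) and with abundance offsets (0.15), and Slc38a2 likewise (0.10 and 0.14). Slc6a6 was at 0.0057 after the GC and length correction.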

Other observations

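Among the members, those listed as transporters of lysosomes were mostly higher in the libraries labelled shMyb. A list of 19 such genes was written from textbook knowledge after the values had been seen, so it carries no test. Of the 15 that were members 10 rose and 1 fell, 66.7% higher beside 30.6% of all tested genes, with a median log2 fold change of 0.32. They included the arginine sensor Slc38a9, the peptide and histidine carriers Slc15a3 and Slc15a4, the nucleoside carrier Slc29a3 and the sugar carriers Slc2a6 and Slc2a8. Slc11a2, an iron carrier of endosomes and lysosomes, fell, with an adjusted p of 0.094 when shLuc replicate 1 was left out and 0.239 when shMyb replicate 2 was. Slc17a5, which exports sialic acid, Slc31a2, Slc38a7 and the heme carrier Slc48a1 did not pass. Over the 16 fits 9 to 12 were higher and 0 to 2 lower. Of all tested genes at 5 to 20 CPM, where several of the 15 lie, 33.8% were higher and 26.4% lower. Of the members in that range 47.8% were higher and 10.9% lower. The part of abundance in this count was not tested.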
